A study of Mus musculus with 6 samples.

Results

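The 10 genes Eef1a1, Eef1b2, Eef1d, Eef1g, Eef2, Tpt1, Pabpc1, Rack1, Naca and Btf3 encode translation elongation factors and other proteins whose mRNAs are described as TOP mRNAs. They were chosen by symbol, with no threshold on measured values, but with earlier results of these data known. All 10 were found among the 55401 genes listed and among the 14269 genes that passed the filter on low counts. RNA-seq counts came from RAW264.7, a mouse macrophage line that grew out of a tumour induced by Abelson leukaemia virus. The Nop16 siRNA group has 3 libraries with a knockdown genotype label, and the control siRNA group has 3 libraries with a wild-type genotype label. The labels carry 1 transfection text for all 6 samples, 20 nM of siRNA against Nop16 over 3 days, and leave unsaid what the control cells received. They also do not call the replicates separate cultures, so the spread behind every p-value may be technical. The series examines what NOP16, a nucleolar protein, does in macrophages.

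A TOP mRNA begins with a C at its cap that is followed by an unbroken run of pyrimidines, the 5′ terminal oligopyrimidine tract. The translation of these mRNAs is held back when mTORC1 signalling is low, and the cap-binding protein LARP1 takes part in that control. The class holds the mRNAs of the cytosolic ribosomal proteins and of several translation factors, so that cells can adjust the protein synthesis machinery as a unit. In elongation, eEF1A carries aminoacyl-tRNA to the ribosome, the eEF1B complex recharges eEF1A with GTP, and eEF2 drives translocation.

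Start-site sequence was shown because the TOP class is defined by the first bases of the mRNA. RefSeq promoter entries on GRCm38.p6 matched 7 of the 10 genes. Eef1d, Eef1g and Pabpc1 had no entry. A tract was taken as the first C within 10 bases of the annotated start, on either side, that opened a run of at least 5 pyrimidines (C or T) on the mRNA strand. Each 30-base window below runs 5′ to 3′ on the mRNA strand, with 8 bases before the annotated start and 22 from it, and capitals mark the tract found. Rack1 lies at chr11:48800352-48800381 on the plus strand, Eef1a1 at chr9:78481703-78481732 on the minus strand, Naca at chr10:128035338-128035367 on the plus strand and Eef2 at chr10:81176623-81176652 on the plus strand.
Rack1: cgCTCTTTCTTTTTCTCCacagggtcgtgg
Eef1a1: ccgCCCTCTTCCCgagggtgggggagaacg
Naca: gttCTCTTaaagaggaaacccggacgccgt
Eef2: ggccgggcgttgacgtcagcggtCTCTTCC
The Rack1 tract had 16 pyrimidines, the Eef1a1 tract 10 and the Naca tract 5. The Naca window lies wholly upstream of the counted Naca gene model, which begins at position 128035575. The tract of Eef2 opened 15 bases past the annotated start and was found only when the distance was widened to 20 bases. Eef1b2 and Tpt1 had none within 10 or 20 bases, and for Btf3, with 2 annotated starts, tracts opened only 20 and 18 bases before them. In all, 3 of 7 matched genes (42.9%) had a tract within 10 bases, against 34.4% of the 27025 genes in the promoter table. The same search found one in 6 of 9 other genes described as TOP (66.7%) and in 35 of 58 cytosolic ribosomal protein genes (60.3%). A gene was counted if any of its annotated starts had a tract. A match describes letters near an annotated start and is not evidence of the start used in these cells.

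The libraries held 15601477 to 18635089 counts in the Nop16 siRNA group and 19778237 to 23061922 counts in the control siRNA group. Nop16 itself had 61, 72 and 84 counts in Nop16 siRNA libraries, against 388, 437 and 402 in control siRNA libraries, a level of 22.4% of control (edgeR quasi-likelihood test, adjusted p = 2.94e-23). All 8 macrophage markers were measured, and their summed level was 7311 to 7709 CPM in Nop16 siRNA libraries and 4617 to 4912 CPM in control siRNA libraries. Of the 8, 5 were called higher and 2 lower, beside 23% higher and 22.4% lower among all genes tested. Those called lower were Ptprc at -0.13 and Fcgr1 at -0.36 on the log2 scale. Lyz2 alone averaged 2934 CPM in Nop16 siRNA libraries and 1144 CPM in control siRNA libraries. The part of these differences in the results below was not tested. Of the markers of T cells, B cells, fibroblasts and epithelium, 4 for each type, none passed the filter, and none exceeded 4 counts in a library. CPM here are counts scaled to the library size after TMM normalization. Lower mRNA per cell and fewer cells of a type cannot be told apart in such bulk samples.

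All 10 mRNAs fell in Nop16 siRNA cells. Eef2 fell the most, to 52.1% of control, and Eef1g the least, to 92.5% of control. Over all 14269 genes tested, edgeR's quasi-likelihood test called 45.4% changed at an adjusted p below 0.05, with 22.4% lower and 23% higher. Each of the 10 genes also had its 3 Nop16 siRNA libraries below its 3 control siRNA libraries, a separation that 26.2% of tested genes showed in this direction. The 10 are abundant mRNAs, and among the 2067 genes that averaged 100 CPM or more, a limit set after the data were seen, 35.9% were called lower and 39.5% higher. The median log2 fold change was -0.48 over the 10 genes, and -0.000197 over all genes tested. TMM scaling holds the median over all genes near 0, and with library size scaling only it was -0.023.

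**Figure D1:**
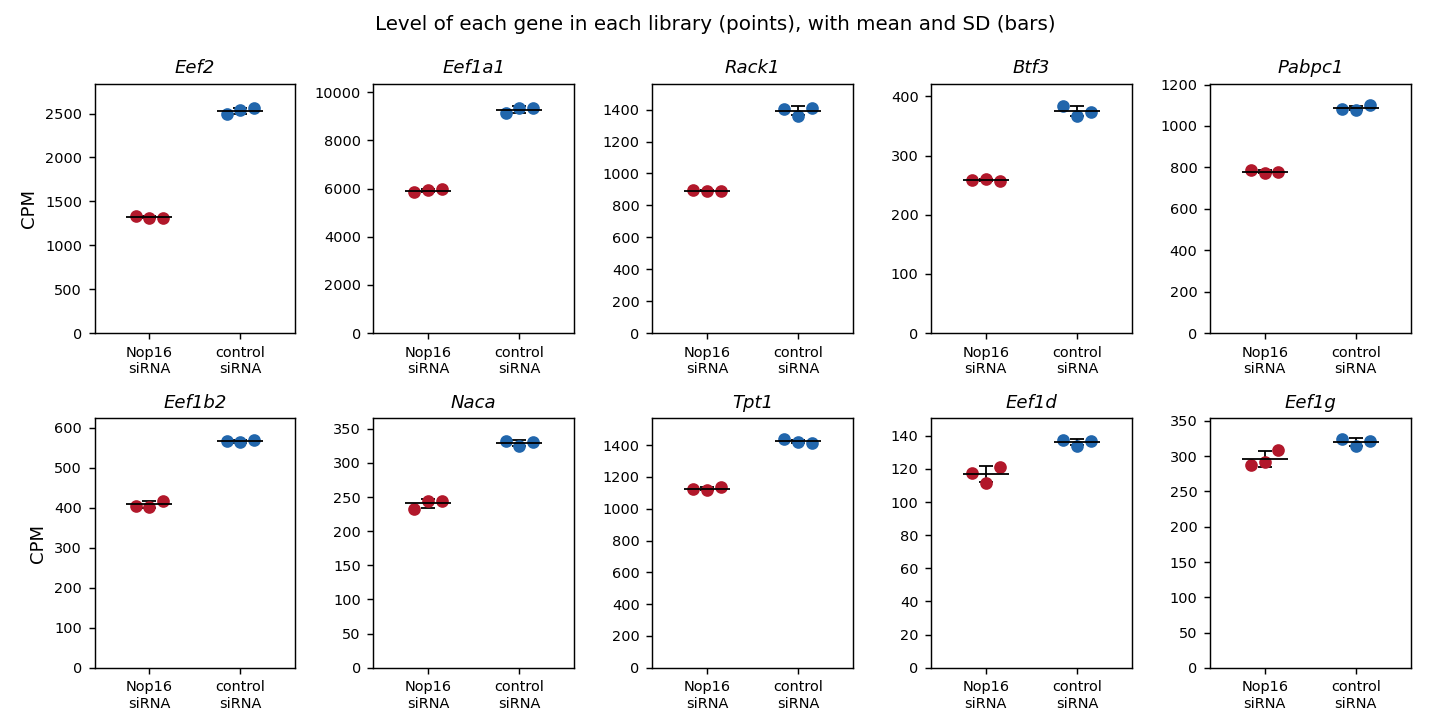
Level of each of the 10 genes in CPM (y axes from 0, 1 panel per gene) in the 3 Nop16 siRNA libraries (red, left) and the 3 control siRNA libraries (blue, right). Points are libraries and bars the mean and SD; in every panel the Nop16 siRNA points lie below the control siRNA points, with the widest gap relative to its level for Eef2 and the narrowest for Eef1g.

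Eef2 encodes elongation factor 2, the GTPase that moves the ribosome along by 1 codon after each peptide bond. Its gene lies at chr10:81176631-81182498 on the plus strand of GRCm38. Eef2 had 1336, 1310 and 1313 CPM in Nop16 siRNA libraries, against 2492, 2540 and 2563 CPM in control siRNA libraries. The highest Nop16 siRNA library was well under the lowest control siRNA library. The log2 fold change was -0.94 ± 0.0263 (SE, n = 3 per group; edgeR quasi-likelihood test, adjusted p = 1e-37). Of all genes tested, Eef2 included, 296 (2.07%) had a log2 fold change as low or lower. Of the 79 ribosomal protein genes, 3 did, Rps29, Rps20 and Rpl12, each of which averaged less than 1000 CPM. Of the 89 genes that averaged 1000 CPM or more, only Eef2 itself did. That limit leaves out those 3 ribosomal protein genes and takes no account of mRNA length.

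Eef1a1 encodes elongation factor 1A, which delivers aminoacyl-tRNA, and was the second most abundant mRNA of all genes tested by mean CPM. The gene lies at chr9:78478449-78489151 on the minus strand. It had 5843, 5927 and 5983 CPM in Nop16 siRNA libraries, against 9129, 9354 and 9362 CPM in control siRNA libraries. The libraries of each group lay close together and the groups were far apart. Eef1a1 fell by 0.65 on the log2 scale (SE 0.0249; edgeR quasi-likelihood test, adjusted p = 4.93e-31). It held 0.587% ± 0.00611 of all counts in Nop16 siRNA libraries and 0.935% ± 0.0138 in control siRNA libraries (SD, n = 3 each).

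The eEF1B subunits form the exchange complex that returns eEF1A to its GTP-bound state. Eef1b2 encodes a subunit that carries the exchange activity. It had 404, 402.6 and 417.9 CPM in Nop16 siRNA libraries, against 565.7, 563.1 and 568.7 CPM in control siRNA libraries. The groups did not overlap, and the log2 fold change was -0.47 ± 0.0289 (SE; edgeR quasi-likelihood test, adjusted p = 1.83e-21). Eef1b2 lies at chr1:63176825-63180486 on the plus strand.

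Eef1d, which encodes another subunit with exchange activity, was the least abundant of the 10 genes and lies at chr15:75894205-75909556 on the minus strand. It had 117.8, 111.7 and 121.3 CPM in Nop16 siRNA libraries, against 137.7, 134 and 136.6 CPM in control siRNA libraries. Nop16 siRNA replicate 2 was the lowest library and the groups did not overlap. The log2 fold change was -0.22 ± 0.0388 (SE; edgeR quasi-likelihood test, adjusted p = 3.26e-06).

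Eef1g encodes the structural subunit that anchors the complex, and lies at chr19:8967041-8978479 on the plus strand. It had 287.5, 292.3 and 308.2 CPM in Nop16 siRNA libraries, against 324.6, 313.9 and 321.4 CPM in control siRNA libraries. Nop16 siRNA replicate 3 came close to control siRNA replicate 2, the narrowest gap among the 10 genes. The log2 fold change was -0.11 ± 0.0315 (SE; edgeR quasi-likelihood test, adjusted p = 0.00252). Of all genes tested, Eef1g included, 5101 (35.7%) had a log2 fold change as low or lower, among them all 79 ribosomal protein genes. Against a minimum change of 1.2-fold, 8 of the 10 genes were called lower, and Eef1d and Eef1g were not (adjusted p = 1.0 for each, edgeR's glmTreat), beside 8.78% of all genes tested.

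Rack1 encodes a scaffold protein of the small ribosomal subunit, near the mRNA exit, that docks signalling kinases. Its gene lies at chr11:48800332-48806434 on the plus strand. It had 897.3, 890.1 and 888.9 CPM in Nop16 siRNA libraries, against 1407, 1359 and 1410 CPM in control siRNA libraries. The Nop16 siRNA libraries differed from each other by less than the control siRNA libraries did, and the groups were well apart. The log2 fold change of -0.64 ± 0.027 (SE; edgeR quasi-likelihood test, adjusted p = 5.25e-29) was next to that of Eef1a1.

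Naca and Btf3 encode the alpha and beta subunits of the nascent polypeptide-associated complex, which binds new chains as they leave the ribosome. Naca, at chr10:128035575-128048637 on the plus strand, had 233.1, 243.9 and 244.7 CPM in Nop16 siRNA libraries, against 332, 324.2 and 330.6 CPM in control siRNA libraries. Btf3, at chr13:98309896-98317006 on the minus strand, had 258.1, 260.3 and 256.8 CPM in Nop16 siRNA libraries, against 383.9, 367.5 and 372.7 CPM in control siRNA libraries. Neither gene's groups overlapped. By edgeR's quasi-likelihood test, Naca fell by 0.45 on the log2 scale (SE 0.0315, adjusted p = 5.22e-19) and Btf3 fell by 0.54 (SE 0.0307, adjusted p = 8.98e-23).

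Pabpc1 encodes the main cytoplasmic poly(A)-binding protein, which coats mRNA tails and aids initiation. Located at chr15:36595661-36609668 on the minus strand, it had 785.7, 773.8 and 779.5 CPM in Nop16 siRNA libraries, against 1084, 1077 and 1099 CPM in control siRNA libraries. Both groups were tight and did not overlap, with a log2 fold change of -0.48 ± 0.0271 (SE; edgeR quasi-likelihood test, adjusted p = 4.96e-23). Tpt1 encodes TCTP, a small calcium- and tubulin-binding growth protein that is an often used TOP reporter. Located at chr14:75845093-75848525 on the plus strand, it had 1124, 1117 and 1136 CPM in Nop16 siRNA libraries, against 1436, 1422 and 1416 CPM in control siRNA libraries. The groups were again separate, and Tpt1 fell by 0.34 on the log2 scale (SE 0.0264; edgeR quasi-likelihood test, adjusted p = 4.65e-17).

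In order of log2 fold change the genes ran Eef2, Eef1a1, Rack1, Btf3, Pabpc1, Eef1b2, Naca, Tpt1, Eef1d and Eef1g. Only the first pair of neighbours, Eef2 at -0.99 to -0.89 and Eef1a1 at -0.7 to -0.6, had 95% intervals that did not overlap. Each later gene overlapped the next. Genes further apart in the order did separate, as Eef1a1 did from Eef1g, whose interval was -0.17 to -0.05.

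**Figure D2:**
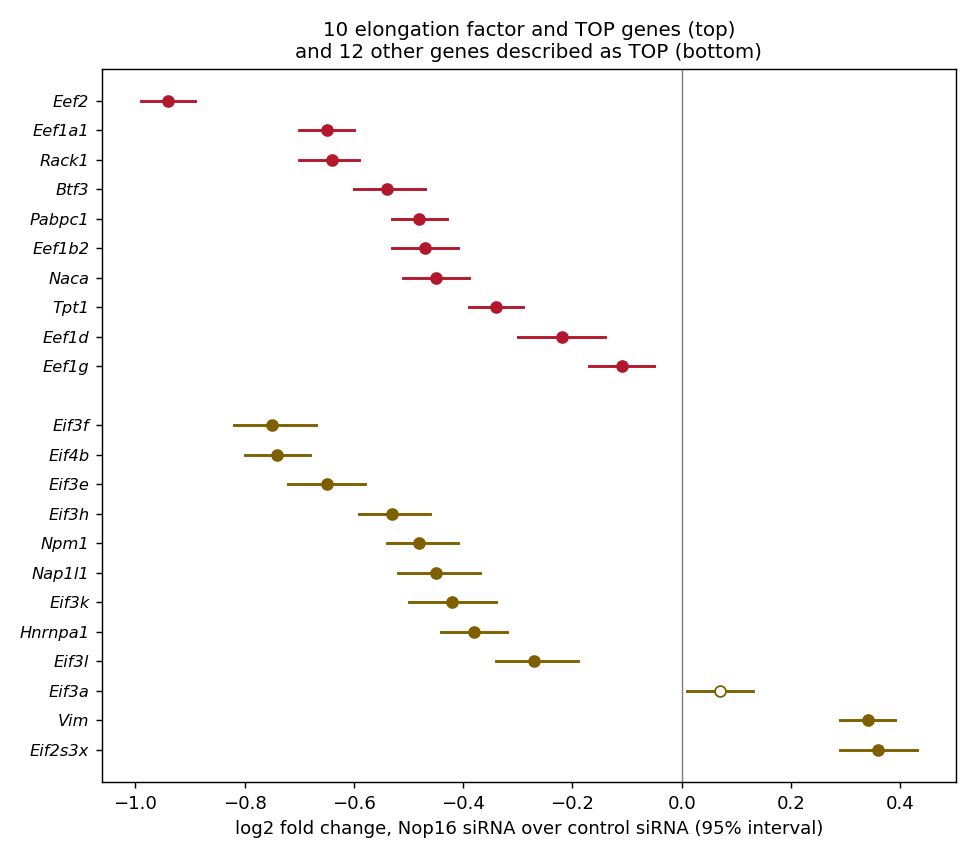
Log2 fold change of Nop16 siRNA over control siRNA (x axis) with its 95% interval for the 10 genes (red, top) and 12 other genes described as TOP (brown, bottom); the open point did not pass the test. The 10 genes run from -0.94 for Eef2 to -0.11 for Eef1g, all left of 0, while Vim and Eif2s3x lie to the right.

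Ratios of counts between members of the same library do not depend on how libraries are scaled. Eef2 per Eef1a1 was 0.229, 0.221 and 0.219 in Nop16 siRNA libraries and 0.273, 0.272 and 0.274 in control siRNA libraries, a log2 difference of -0.29. Eef1g per Eef1a1 was 0.0492, 0.0493 and 0.0515 in Nop16 siRNA libraries and 0.0356, 0.0336 and 0.0343 in control siRNA libraries, a log2 difference of 0.54. The ratio to Eef1a1 was higher in Nop16 siRNA libraries for each exchange complex subunit, by 0.18 on the log2 scale for Eef1b2 and by 0.43 for Eef1d.
Eef2 per Eef1g averaged 4.46 ± 0.195 in Nop16 siRNA libraries and 7.91 ± 0.215 in control siRNA libraries (SD, n = 3 each). Naca per Btf3, the pair of nascent chain subunits, was higher in Nop16 siRNA libraries, at 0.903, 0.937 and 0.953 in Nop16 siRNA libraries and 0.865, 0.882 and 0.887 in control siRNA libraries. Rack1 per Eef1a1 averaged 0.151 ± 0.00256 in Nop16 siRNA libraries and 0.15 ± 0.00445 in control siRNA libraries, and these groups overlapped. Of 9 such ratios, 8 separated the groups completely. Each of these 8 had an exact two-sided permutation p = 0.1, the smallest that 3 libraries against 3 can give, and an adjusted p = 0.113. The share of all gene pairs that would separate was not computed. Of single genes tested, 26.2% separated with the Nop16 siRNA libraries lower and 26.3% with them higher. Most of the 9 ratios have Eef1a1 as the denominator, so they are not independent of each other.

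**Figure D3:**
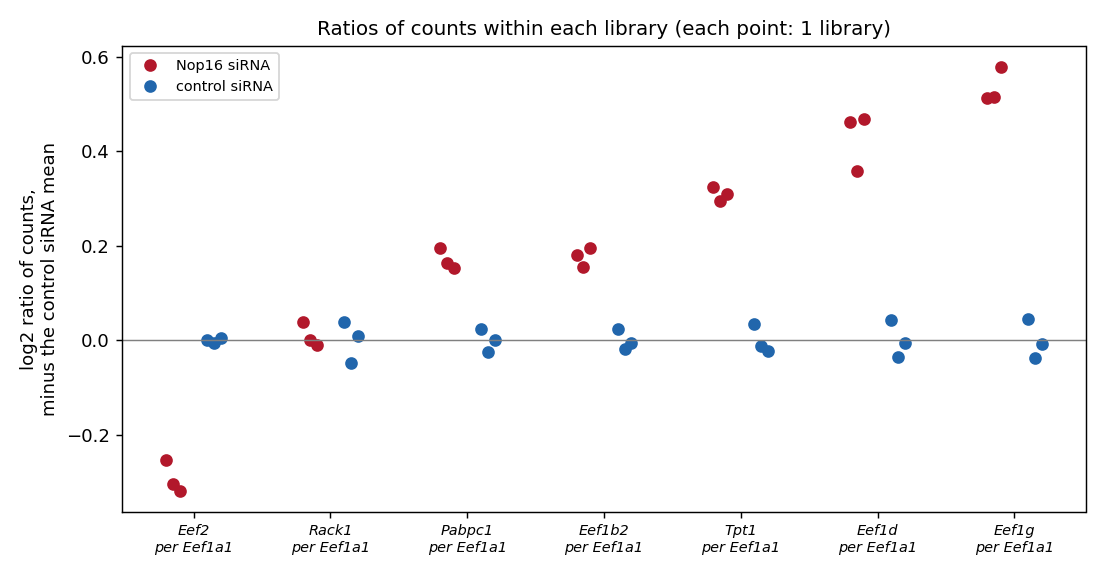
Log2 ratio of a gene's counts to those of Eef1a1 in each library, minus the control siRNA mean (y axis), with Nop16 siRNA libraries in red on the left and control siRNA libraries in blue on the right of each pair. Eef2 per Eef1a1 lies below the control siRNA libraries by 0.29, Rack1 per Eef1a1 overlaps them, and the other 5 ratios lie above them, up to 0.54 for Eef1g.

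Together the 10 genes held 1.12%, 1.13% and 1.13% of all counts in Nop16 siRNA libraries, against 1.74%, 1.76% and 1.77% in control siRNA libraries. Exact binomial 95% intervals, which cover counting error only, ran from 1.115% to 1.136% over the Nop16 siRNA libraries and from 1.734% to 1.775% over the control siRNA libraries. The difference of the group means was -0.631 percentage points (exact two-sided permutation p = 0.1, the smallest possible). Eef1a1 alone made -0.348 of those points and Eef2 another -0.124.

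Levels can be compared between genes only per length. Per kilobase of the principal transcript, Eef1a1 led at 3299 ± 39.3 CPM in Nop16 siRNA libraries and 5174 ± 73.7 CPM in control siRNA libraries (SD, n = 3 each). Tpt1 came second at 963 CPM per kilobase in Nop16 siRNA libraries and 1219 in control siRNA libraries, followed by Rack1 at 617 in Nop16 siRNA libraries and 962 in control siRNA libraries. Eef1d was lowest at 50.6 CPM per kilobase in Nop16 siRNA libraries and 58.9 in control siRNA libraries. The order of the 10 genes on this scale was the same in both groups. On the combined length of all annotated exons, Tpt1 was above Eef2 in Nop16 siRNA libraries, at 473 against 397 CPM per kilobase, and below it in control siRNA libraries, at 599 against 761.7 CPM per kilobase.

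Of 12 other genes described as TOP, 9 fell and 2 rose, with a median log2 fold change of -0.43. Among all genes tested, 22.4% were called lower and 23% higher. The 9 were the initiation factor 3 subunits Eif3e, Eif3f, Eif3h, Eif3k and Eif3l, the initiation factor Eif4b, the nucleolar and histone chaperones Npm1 and Nap1l1, and the RNA-binding protein gene Hnrnpa1. Eif3f had 125.9, 118.9 and 119.9 CPM in Nop16 siRNA libraries, against 206.7, 194.5 and 211.8 CPM in control siRNA libraries. Eif4b, whose protein helps the initiation helicase, had 355.9, 371.6 and 369.4 CPM in Nop16 siRNA libraries, against 596.3, 624.7 and 609.8 CPM in control siRNA libraries. The groups of both genes were far apart, with log2 fold changes of -0.75 ± 0.0372 for Eif3f and -0.74 ± 0.0295 for Eif4b (SE; edgeR quasi-likelihood test, adjusted p = 1.35e-25 and 4.23e-30). The other falls ran from -0.65 for Eif3e to -0.27 for Eif3l.

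The genes of that list that did not fall were Eif2s3x, Vim and Eif3a. Eif2s3x encodes a subunit of the initiation factor that brings the initiator tRNA, and had 193.4, 207.6 and 207.2 CPM in Nop16 siRNA libraries, against 156.3, 161.6 and 157.1 CPM in control siRNA libraries. Vim, the gene of the intermediate filament protein vimentin, had 3904, 3837 and 3782 CPM in Nop16 siRNA libraries, against 2941, 3009 and 3153 CPM in control siRNA libraries. Both rose, by 0.36 and 0.34 on the log2 scale (edgeR quasi-likelihood test, adjusted p = 3.7e-13 and 4.93e-17). Eif3a, the scaffold of initiation factor 3, had a log2 fold change of 0.07 that did not pass the test (adjusted p = 0.0658, edgeR quasi-likelihood test), but did without Nop16 siRNA replicate 1 (0.1, adjusted p = 0.0121).

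Cytosolic ribosomal protein genes, the largest group of TOP mRNAs, had 78 of 79 lower and none higher, with a median of -0.62. The shares among all genes tested were 22.4% lower and 23% higher. Their log2 fold changes ran from -1.51 for Rps29 to -0.21, and Rps20 at -1.36 and Rpl12 at -0.99 were the next lowest. The only 1 that missed the test was Rpl21, at -0.37 (SE 0.195, edgeR quasi-likelihood test, adjusted p = 0.118), singled out after its values were seen. Its level was low, with a mean of 3.63 CPM in Nop16 siRNA libraries and 4.67 CPM in control siRNA libraries. Rpl21 passed the same test without control siRNA replicate 2 (-0.51, adjusted p = 0.043). Of the 10 elongation factor and TOP genes, Eef2 at -0.94, Eef1a1 at -0.65 and Rack1 at -0.64 lay below that median, while Eef1g at -0.11 was above every ribosomal protein gene.

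**Figure D4:**
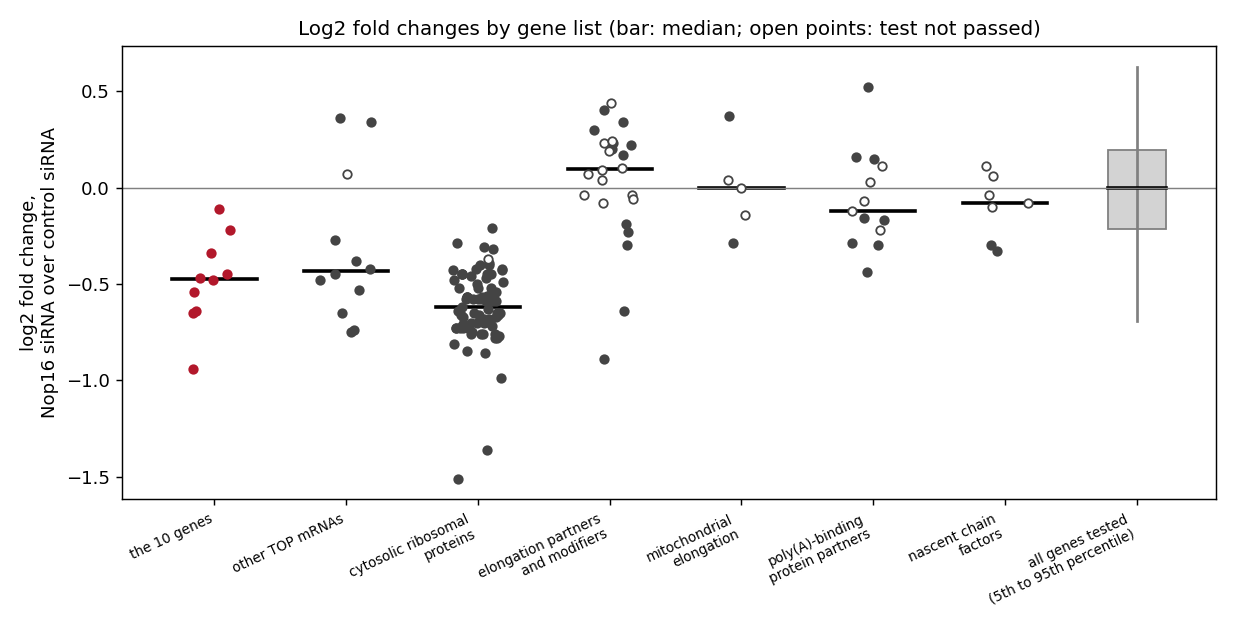
Log2 fold change of Nop16 siRNA over control siRNA (y axis) for each tested gene of each list, with the 10 genes in red, the median as a bar and genes that did not pass the test as open points; the grey box shows the quartiles of all genes tested and its line the 5th to 95th percentile. The medians were -0.48 for the 10 genes, -0.43 for other TOP mRNAs and -0.62 for ribosomal proteins, against 0.09 for elongation partners and modifiers.

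Of 26 genes for partners and modifying enzymes of the elongation factors, 24 were tested, with 7 higher, 5 lower and a median of 0.09, close to the 23% higher and 22.4% lower among all genes tested. Eef1a2 and Eif5a2, which encode second forms of eEF1A and eIF5A, were not tested. Eef2k, the kinase that inhibits eEF2, had 2.91, 2.19 and 2.72 CPM in Nop16 siRNA libraries, against 5.38, 4.65 and 4.42 CPM in control siRNA libraries. Its groups did not overlap, and it fell by 0.89 on the log2 scale (SE 0.196; edgeR quasi-likelihood test, adjusted p = 0.00013), close to the -0.94 of Eef2.

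Vars, the valyl-tRNA synthetase that binds the eEF1 complex, averaged 165.9 ± 4.98 CPM in Nop16 siRNA libraries and 259.1 ± 3.49 CPM in control siRNA libraries (SD, n = 3 each). It fell by 0.64, next to Eef1a1. Eef1akmt1, a methyltransferase of eEF1A, averaged 9.23 ± 0.614 CPM in Nop16 siRNA libraries and 6.98 ± 0.479 CPM in control siRNA libraries (SD, n = 3 each), a log2 fold change of 0.4 ± 0.13 (SE; edgeR quasi-likelihood test, adjusted p = 0.0086). Among the ribosome rescue factors of the list, Gtpbp2, Hbs1l and Gtpbp1 fell, by 0.3, 0.23 and 0.19 on the log2 scale, and Pelo, the partner of Hbs1l, rose by 0.34. Eif5a, which helps ribosomes through difficult peptide bonds, had a log2 fold change of -0.04 with a 95% interval of -0.1 to 0.02 (edgeR quasi-likelihood test, adjusted p = 0.275). The 7 higher genes became 2 with DESeq2, 4 with library size scaling or with no filter and 0 at a minimum fold of 1.2, and leaving out 1 library gave 3 to 6, the 3 without Nop16 siRNA replicate 1 or control siRNA replicate 3.

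Of 5 mitochondrial elongation factor genes, which serve the separate mitochondrial ribosome, Gfm2 rose by 0.37 and Gfm1 fell by 0.29 on the log2 scale. The others did not pass the test, and of all genes tested 23% were higher and 22.4% lower. Gfm2 averaged 29.9 ± 1.37 CPM in Nop16 siRNA libraries and 23.2 ± 0.514 CPM in control siRNA libraries, and Gfm1 averaged 35.2 ± 3.3 CPM in Nop16 siRNA libraries and 43.2 ± 1.22 CPM in control siRNA libraries (SD, n = 3 each). At a minimum fold of 1.2 neither passed.

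Of 13 partners and relatives of PABPC1, 3 rose and 5 fell, with a median of -0.12, beside 23% higher and 22.4% lower among all genes tested. Tob1, which recruits the deadenylase to PABPC1, averaged 18.9 ± 1.79 CPM in Nop16 siRNA libraries and 13.2 ± 0.239 CPM in control siRNA libraries (SD, n = 3 each) and rose by 0.52 on the log2 scale (edgeR quasi-likelihood test, adjusted p = 4.81e-06). Pan2, the catalytic subunit of a poly(A) nuclease, fell by 0.44, and Pabpn1, the nuclear poly(A)-binding protein, fell by 0.3. Larp1, the TOP cap-binding protein, had 137.2, 135.4 and 141.2 CPM in Nop16 siRNA libraries, against 166.5, 164.7 and 175.5 CPM in control siRNA libraries. Its groups did not overlap and it fell by 0.29 (SE 0.0366; edgeR quasi-likelihood test, adjusted p = 9.02e-10). Pabpc4, a close relative of Pabpc1, fell by 0.16 (adjusted p = 0.00866 by the same test), a call that was lost without control siRNA replicate 2 (-0.12, adjusted p = 0.0834), which also took the count of falls in this list to 3.

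Of 8 other factors that act on nascent chains, 7 were tested and 2 fell, a share near the 22.4% lower among all genes tested. Naa10 and Naa15, the catalytic and ribosome-binding subunits of the main N-terminal acetyltransferase, fell by 0.33 and 0.3 on the log2 scale (edgeR quasi-likelihood test, adjusted p = 3.8e-05 and 7.14e-08). Naca at -0.45 and Btf3 at -0.54 were both lower than either.

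The counting could share fragments between the 10 genes and their retrocopies, since fragments that mapped to several places were counted, per the file headers. A sequence search with the mouse gene models of GENCODE release M21, older than the Ensembl models counted, matched 73 pseudogenes to the 10 genes, and 19 of these had enough counts to be tested. Of the 19, 15 fell and none rose, with a median of -0.61, beside 22.4% lower and 23% higher among all genes tested. The summed counts of a gene's copies were largest for Eef1g, at 31.6% to 33.5% of its own counts over the 6 libraries. They came to 15.4% to 17.3% for Naca, 8.85% to 9.85% for Btf3, at most 3.48% for the others, and 0 for Rack1.
The copy with the most counts of each gene can be set beside its parent. Gm4366, 99.6% identical to Eef1g, was at -0.11, as was Eef1g, and lost its call without control siRNA replicate 1 (-0.09, adjusted p = 0.114, edgeR quasi-likelihood test). Gm13050, a copy of Eef2, fell by 0.99 on the log2 scale, and Gm6863, a copy of Naca, fell by 0.43. Gm3531 of Btf3 fell by 0.62, Gm13456 of Eef1a1 by 0.54 and Tpt1-ps3 of Tpt1 by 0.36. Gm16580 of Pabpc1, at 16 to 34 counts in Nop16 siRNA libraries and 46 to 54 counts in control siRNA libraries, fell by 0.72, but its call was lost with DESeq2 (adjusted p = 0.0593), with thinned counts and without Nop16 siRNA replicate 1 (-0.55, adjusted p = 0.141), Nop16 siRNA replicate 2 or control siRNA replicate 1. Which copy a fragment came from was not tested, and values of Eef1g, Naca and Btf3 are uncertain to that extent.

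Shared annotation touched 4 of the genes on the same strand. Eef1a1 holds a microRNA model, Gm26377, that covers 108 bases (4.3%) of its exons and was counted at 10489, 11738 and 13000 in Nop16 siRNA libraries and 23367, 25182 and 19569 in control siRNA libraries. These counts moved with those of Eef1a1, whose exons contain them. Eef1b2 shares 176 bases (7%) with Gm27390, Eef1d shares 277 bases (4.3%) with Naprt, and Rack1 shares 216 bases (4.2%) with snoRNA models. None of those neighbours exceeded 127 counts in a library, against at least 1823 for each of the 10 genes. Small nucleolar RNA models in introns of Eef1b2, Eef2 and Tpt1 had 35 counts or fewer in poly(A)-selected RNA.

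**Figure D5:**
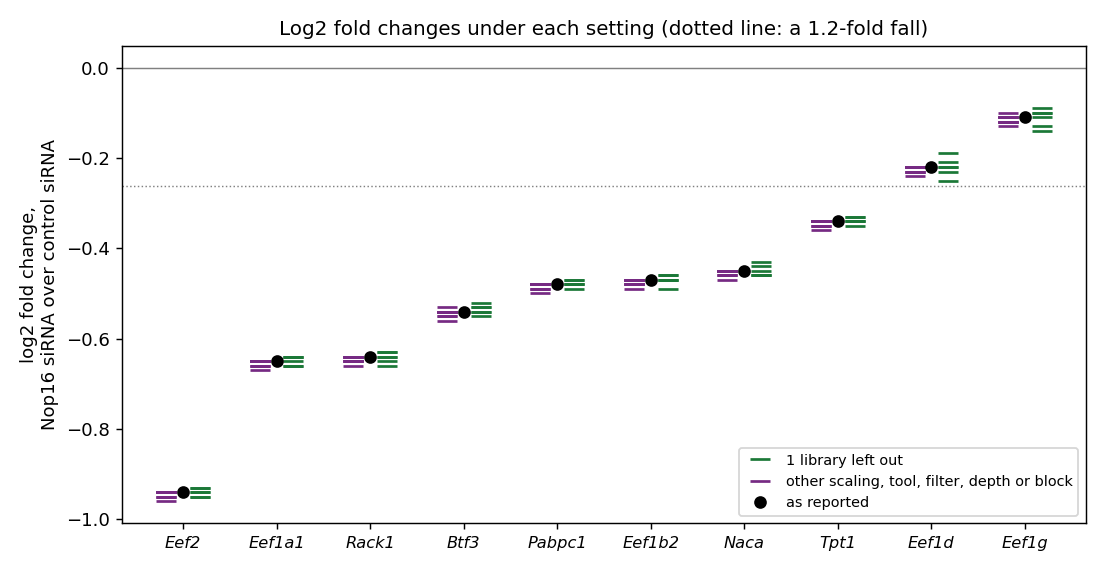
Log2 fold change of Nop16 siRNA over control siRNA (y axis) of each of the 10 genes as reported (black), under other scalings, tools, filters, depth and block (purple) and with 1 library left out (green); the dotted line marks a 1.2-fold fall. All values are below 0, from -0.96 for Eef2 to -0.09 for Eef1g, and only Eef1d and Eef1g lie above the dotted line.

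The 10 log2 fold changes moved little between settings. Over 19 alternatives, Eef2 ran from -0.96 to -0.93, Eef1a1 from -0.67 to -0.64, Tpt1 from -0.36 to -0.33 and Eef1g from -0.14 to -0.09. The libraries' scaling factors were all between 0.989 and 1.01, and all 10 genes fell with library size scaling too.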

How the data were processed

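RAW264.7 RNA was poly(A)-selected and made into directional libraries from 1 µg, per the labels' protocols. The authors deposited raw counts per gene, made with featureCounts 2.0.1 on Ensembl release 101 models of GRCm38, with strand setting 2, a minimum overlap of 10 bases, and multi-mapped and multi-overlapping fragments counted, per the file headers. HISAT2 2.2.1 and Trim Galore are named in the submitters' processing notes. A fragment can count for several genes, so totals are not distinct fragments. Symbols matched 55141 of 55401 identifiers.

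Counts were tested over 14269 genes with edgeR 4.0.16 in R 4.3.3 (filterByExpr, TMM, robust quasi-likelihood fit, Benjamini-Hochberg adjusted p below 0.05), with no covariate. Each SE was obtained from the log2 fold change and the F statistic. DESeq2 1.42.0, limma 3.58.1 (voom), other scalings and filters, a replicate block, thinning, protein-coding genes only and leaving out each library were alternatives. Tested on simulated data of 14050 genes, the edgeR step found 42% of 1.2-fold changes, 96% of 1.5-fold changes and every 2-fold change. Of its calls, 3.98% were false. The simulation changed 50 genes at each fold, none of them at a low level, while 45.4% of tested genes were called in the data. Its rates may therefore not hold for these data. No library was a repeat of another (chi-square per degree of freedom 2.52 to 3.12 for pairs within a group, 45.5 to 52.5 across groups). The detection floor, 3 counts, corresponds to 0.13 to 0.192 CPM. Retrocopies were matched with BLAST 2.17.0 at 85% identity over 50% of the copy. The 10 genes and the lists were chosen with earlier results of these data known. Named genes were the 10, Nop16, up to 3 changed genes of largest change in each list and the most abundant copy of each gene; other named genes of the lists were chosen after their values were seen.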

Additional observations from a re-analysis of the deposited data

How the results depend on the processing

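All 10 genes were called lower under every scaling, tool, filter, depth and left-out library, and 8 of 10 at a minimum fold of 1.2, where 1108 of all genes were higher and 1253 lower. At that minimum fold the elongation partners had 0 higher and 2 lower, the mitochondrial factors 0 higher and 0 lower, the PABPC1 partners 1 higher and 1 lower, and the nascent chain factors 0 lower. Elongation partners called higher numbered 4 with library size only, 2 with DESeq2 and 4 with no filter. With 1 library left out, elongation partners had 3 to 6 higher, PABPC1 partners 3 to 5 lower and nascent chain factors 0 to 1 higher, the 1 without control siRNA replicate 1. The difference in the share of counts was -0.706 points of protein-coding counts, -0.683 without ribosomal protein genes and retrocopies, and -0.646 with retrocopies added. As ratios of the Nop16 siRNA mean to the control siRNA mean, these were 0.634, 0.629 and 0.643, against 0.641 as reported. A tract was found in 5 of 7 genes within 20 bases of the start, where 53.3% of all genes had one, and in 2 of 7 at 7 or more pyrimidines, where 14.1% did. Each shift came with a change of threshold, tool, scaling, filter, window, libraries or counts included, and no further cause was tested.

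Libraries of the same replicate number correlated at 0.0175, -0.0198 and -0.0223 between the groups, in their deviations from the group means. Libraries of different numbers ran from -0.0152 to 0.0356. With 3 libraries per group these values do not settle whether libraries of the same number shared a day or batch, which the labels leave unsaid. With a replicate block, all 10 genes were lower, with 3241 genes higher and 3188 lower in all. With 3 libraries per group a 1.2-fold change was often missed on simulated data, so a gene that did not pass may still have changed.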
